A study of Mus musculus with 40 samples.

Results

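Colon was compared with small intestine, gene by gene, within each of 5 C57BL/6 mice, on 10 of the 40 arrays of the series. The arrays were chosen by their titles, as the PBS-treated C57BL/6 colon and small intestine samples, and no measured value entered that choice. The mice were 9-week-old specific-pathogen-free females of the C57BL/6 strain from Charles River and had received 200 µl of phosphate-buffered saline (PBS) by gavage 3 times a week for 4 weeks. PBS was the vehicle of the study's treatment, VSL#3, a mixture of live probiotic bacteria. Frozen intestinal tissue gave the RNA, and the labels do not say which segment of either organ was taken. For a comparison of the tissue difference itself, the report also uses 5 PBS mice of the BALB/c strain, which came from another supplier (Janvier), and 5 C57BL/6 mice that had received VSL#3, all female, of the same age and on the same gavage schedule. Strain and supplier cannot be told apart. The fit also holds 5 BALB/c mice that had received VSL#3, of the same age and gavage schedule. They enter only the estimate of the spread.

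The small intestine digests and absorbs nutrients through villi whose enterocytes carry hydrolases and transporters on a brush border, and its crypts hold Paneth cells, which secrete antimicrobial peptides. The colon has no villi. Its surface cells recover water and salt, and its many goblet cells keep a mucus layer between the epithelium and a dense microbiota. The positional identity of the gut along its length is set in development by transcription factors, among them those of the Hox clusters, whose genes are arranged on the chromosome in the order of their domains along the body.

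Levels are log2 normalized array intensities, and a difference is the mean over the 5 mice of each mouse's colon value minus its small intestine value, with the standard error (SE) of a limma fit, so that a positive value is higher in colon. Adjusted p-values are Benjamini-Hochberg values over the 8931 genes tested, and a gene passed at an adjusted p under 0.05. Values in every mouse are listed from mouse 1 to mouse 5. The mice differ in no label other than a source-code letter, A for mice 1 to 3 and B for mice 4 and 5. Levels near 5 are at the limit of detection, and the offset used in the normalization compresses differences there, so that a fold change of a gene with a low level understates the change. Where a gene was detected on none of the 5 arrays of a tissue, its fold is given as at least a value set by the detection limit. Where only some arrays of a tissue detected a gene, its difference includes values near the background. These are whole-tissue samples, so that fewer cells of a type and less RNA per cell cannot be told apart.

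Between 12391 and 13257 of the 25697 probes were detected per array. Arrays of the same tissue correlated with r between 0.973 and 0.987 over probes, and colon with small intestine between 0.925 and 0.947. All 40 arrays of the series detected Xist, which females transcribe from their inactive X chromosome, and none detected Kdm5d or Eif2s3y of the Y chromosome. Uty, also of the Y chromosome, was called detected on 24 of 40 arrays, at levels of 4.68 to 6.30, near the limit of detection. Brush border markers read as labelled, but the probes for Fabp1, Fabp2, Gata4, Pdx1, Slc10a2 and Hoxb13, which would help to place the segments, were detected on no array of either tissue in these mice. A few arrays stood apart in small groups of genes. Colon of mouse 3 carried exocrine pancreas transcripts, colon of mouse 4 carried high interferon-inducible transcripts, and colon of mouse 5 read high for several genes that were low in the other 4 colon samples. The small intestine of mice 3 and 5 differed from the other 3 in acute-phase transcripts and in the defensin probes of Defa31 and AY761185. The probes of Defa22 and Defa39 were high in the small intestine of every mouse, at 14.92 to 15.28 and 14.02 to 14.33. Their values are given beside the results they touch.

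Of the 8931 genes tested, 4218 (47.2%) differed between the tissues, 2451 (27.4%) higher in colon and 1767 (19.8%) higher in small intestine. By at least 1 log2 unit, 513 genes (5.74%) were higher in colon and 560 (6.27%) higher in small intestine. The median absolute difference of the genes that passed was 0.61. The median of the signed differences over all genes was 0.05, which is not a size of change. The counts of the gene lists that follow stand beside these shares. Among the genes that passed, 3721 moved in the same direction in 5 of 5 mice. The 5 values of colon all lay above the 5 of small intestine for 1369 genes (15.3%) and all below them for 1042 (11.7%). Changes of at least 3 log2 units, or 8-fold, were more numerous on the small intestinal side, with 102 genes against 62. The first principal component held 74.0% of the variance between the 10 arrays and separated the tissues.

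**Figure D1:**
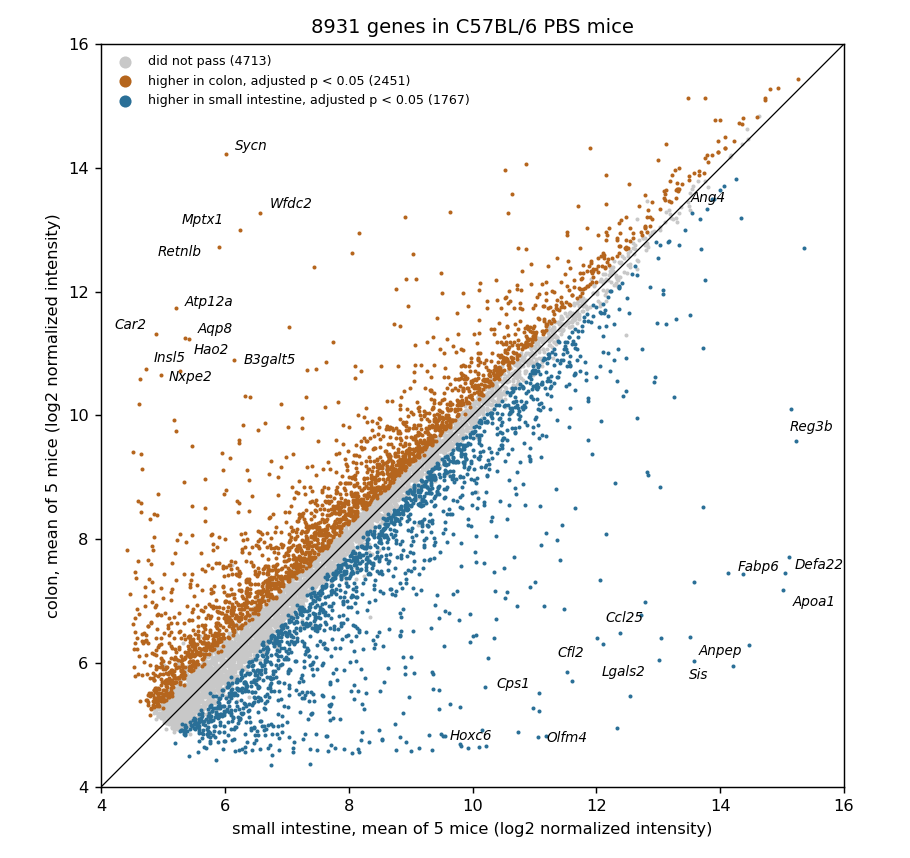
Mean level of each of the 8931 genes in small intestine (horizontal axis) and colon (vertical axis), in log2 normalized intensity over 5 mice; colours mark genes past an adjusted p of 0.05, and the line marks equal levels. Genes such as Sis and Apoa1 lie low in colon and high in small intestine, and Sycn, Wfdc2 and Aqp8 lie on the opposite side.

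Brush border hydrolases were higher in small intestine. All 11 tested members of that list passed in that direction, with a median difference of -4.47 (-4.18 with the member undetected in colon at its bound). Sis encodes sucrase-isomaltase, which splits dietary disaccharides. Its level in colon was 4.66, 6.77, 5.54, 6.58 and 6.57, and in small intestine 13.58, 13.64, 13.54, 13.55 and 13.58. The small intestinal values hardly varied, colon ranged from undetected to low, and the difference of -7.55 (SE 0.31, adjusted p = 6.12e-14) corresponds to 188-fold. Treh, which encodes trehalase, differed by -5.84, and its colon transcript was detected in 1 of 5 mice. The peptidases followed. Anpep (aminopeptidase N) read 5.77 to 7.14 in colon and 13.32 to 13.72 in small intestine (-7.09, SE 0.19), and Xpnpep2 and Naaladl1 differed by -5.95 and -5.67. Enpep, which encodes glutamyl aminopeptidase, was undetected in all colon samples and at least 18.2-fold higher in small intestine. Dpp4, a dipeptidyl peptidase of the same membrane, read 8.67 to 9.21 in colon, where it was detected in all mice, and differed by -3.79 (SE 0.09).

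Of 17 nutrient transporters, 15 were higher in small intestine and 1 higher in colon, with a median of -1.94 (-1.60 with 5 members at their bound). The amino acid carriers had the widest gaps. Slc6a19, the neutral amino acid transporter of the brush border, read 5.12, 5.38, 5.07, 5.34 and 5.25 in colon and 11.40, 11.24, 10.93, 10.92 and 10.87 in small intestine, with no overlap and a difference of -5.84 (SE 0.12, adjusted p = 1.8e-18). Slc7a9, a subunit of the cystine and dibasic amino acid transporter, differed by -5.90, with a second probe at -2.69. The glucose transporter Slc5a1 stayed at 8.40 to 8.65 in colon against 10.56 to 11.52, a 5.88-fold difference, and its relative Slc5a4b was at least 8.25-fold higher in small intestine. Pdzk1, a scaffold protein of apical transporters, showed one of the largest differences of the table, -7.40 (SE 0.15). The exception was Slc46a1, the proton-coupled folate transporter, which was higher in colon by 0.87 (SE 0.19, adjusted p = 0.000842).

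Lipid absorption and chylomicron assembly genes passed in 17 of 17 cases, 16 of them higher in small intestine, with a median of -3.73. Apolipoprotein A-I (Apoa1) read 5.75, 8.50, 5.90, 8.59 and 7.14 in colon and 15.04, 15.13, 14.92, 14.99 and 14.99 in small intestine, a 229-fold difference (-7.84, SE 0.47, adjusted p = 1.91e-11). Mice 2 and 4 had the highest colon levels of Apoa1, and the tissues did not overlap. For Sis the same mice were highest in colon, but mouse 5 nearly equalled mouse 4. Apoc3, Apoa4 and Mttp, the last of which loads lipid onto apolipoprotein B, were undetected in every colon sample and higher in small intestine by at least 66.8-fold, 34.2-fold and 21.2-fold. The cholesterol uptake protein gene Npc1l1 was at least 27.9-fold higher, and Mogat2, which re-forms diacylglycerol in the enterocyte, differed by -5.69. Creb3l3, a transcription factor of apolipoprotein genes, followed them with -3.73. Apobec1, the enzyme that edits apolipoprotein B messenger RNA, was the one member higher in colon, by 0.66 (SE 0.12).

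The 300-base promoters of 4 of these genes are shown because genes that differed together can be read for shared letters. HNF4, CDX and GATA factors are regulators of enterocyte genes, and their cores were searched on both strands as CAAAGTCCA or CAAAGTTCA, as TTTATTG or TTTATGG, and as AGATAA or TGATAA. A promoter with overlapping matches counted once. The sequences run 5′ to 3′ from 250 bases before to 50 bases after the RefSeq gene start (GRCm38.p6), with the match in capitals. Apoa4 (chr9:46240594-46240893, plus strand) and Treh (chr9:44672983-44673282, plus strand) hold an HNF4 match at -182 and -71 from the start. Sis (chr3:72967814-72968113, minus strand) and the colon water channel gene Aqp8 (chr7:123462044-123462343, plus strand) hold a CDX match at -52 and -6.
Apoa4: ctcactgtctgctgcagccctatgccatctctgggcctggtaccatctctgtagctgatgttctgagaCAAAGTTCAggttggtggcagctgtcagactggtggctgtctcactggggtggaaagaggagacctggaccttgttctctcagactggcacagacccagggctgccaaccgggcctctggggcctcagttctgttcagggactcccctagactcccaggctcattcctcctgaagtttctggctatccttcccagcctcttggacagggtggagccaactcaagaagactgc
Treh: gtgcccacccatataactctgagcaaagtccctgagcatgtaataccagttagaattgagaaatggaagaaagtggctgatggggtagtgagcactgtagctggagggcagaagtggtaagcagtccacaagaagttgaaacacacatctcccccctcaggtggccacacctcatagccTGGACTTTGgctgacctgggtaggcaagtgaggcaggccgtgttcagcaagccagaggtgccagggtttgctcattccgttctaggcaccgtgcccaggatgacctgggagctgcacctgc
Sis: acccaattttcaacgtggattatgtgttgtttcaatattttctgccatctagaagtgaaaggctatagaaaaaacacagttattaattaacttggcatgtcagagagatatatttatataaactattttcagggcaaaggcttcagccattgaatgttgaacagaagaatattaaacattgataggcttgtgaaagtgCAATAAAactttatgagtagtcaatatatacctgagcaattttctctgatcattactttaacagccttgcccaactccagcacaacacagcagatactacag
Aqp8: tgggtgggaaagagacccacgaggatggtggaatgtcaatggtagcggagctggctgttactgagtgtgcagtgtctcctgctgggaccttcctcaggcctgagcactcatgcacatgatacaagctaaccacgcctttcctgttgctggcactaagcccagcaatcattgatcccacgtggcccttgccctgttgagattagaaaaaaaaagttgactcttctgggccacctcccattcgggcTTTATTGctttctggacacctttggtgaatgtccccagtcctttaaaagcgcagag
The HNF4 letters occurred in 11 of 542 promoters (2.03%) of genes at least 1 log2 unit higher in small intestine, in 1 of 496 (0.202%) of those higher in colon and in 76 of 9410 (0.808%) of all genes tested. The other 9 small intestinal genes were Pdzk1, Nat8, Cyp3a11, Btnl2, Tkfc, Rbp2, Ptpn22, Rab11fip3 and Ccr6, and the colon gene was Fhl1. CDX letters were in 4.98% of small intestinal, 5.44% of colon and 4.42% of all tested promoters, and Sis and Aqp8 hold them although they differ in opposite directions. GATA letters were in 17.5%, 12.5% and 10.9%. These shares describe 419 of the 560 and 386 of the 513 genes, those with an entry in the promoter table, and a match is not a measured binding site.

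Bile acid and cobalamin uptake, functions of the ileum, gave 8 of 9 members higher in small intestine and 1 higher in colon (median -3.73). Fabp6, the ileal bile acid binding protein, read 6.28, 8.06, 6.95, 7.95 and 8.07 in colon and 14.05, 13.94, 14.46, 14.24 and 13.99 in small intestine, a difference of -6.67 (SE 0.42, adjusted p = 4.07e-11). No colon value approached those of the small intestine. Fgf15, the hormone that ileal cells release in response to bile acids, was at least 21.7-fold higher in small intestine, and Amn, a subunit of the cobalamin receptor, differed by -5.80. Slc51a, a subunit of the basolateral bile acid exporter, read 7.26, 6.61, 6.12 and 6.55 in colon of mice 1 to 4 and 13.57, 13.55, 13.48, 13.67 and 13.57 in small intestine of mice 1 to 5. Colon of mouse 5 was far above the other 4, with a difference of -3.57 in that mouse, and the mean difference was -6.26 with all mice and -6.93 without mouse 5. Abcc3, another basolateral exporter of bile acids, was higher in colon by 1.29 (SE 0.15). Of 8 ileal markers 7 were higher in small intestine (median -4.23, -4.09 with 1 member at its bound). Of 6 markers of the proximal small bowel, 2 were higher in small intestine and 2 in colon (median -0.27), the first count being 1 without mouse 2 or 3.

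Citrulline and urea cycle genes also lay mostly on the small intestinal side, with 8 of 11 higher there, 1 higher in colon and a smaller median difference of -2.06. Cps1, the mitochondrial enzyme that makes carbamoyl phosphate, read 5.06 to 6.08 in colon and 10.84 to 11.26 in small intestine (-5.57, SE 0.18), and Arg2, Slc25a15 and Otc differed by -4.17, -2.57 and -2.47. Ass1, which uses citrulline for arginine synthesis, went the other way, at 8.38, 7.84, 7.98, 7.76 and 8.11 in colon and 6.68, 6.46, 6.56, 6.35 and 6.80 in small intestine, with no overlap (1.44, SE 0.13).

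Ion and water transport genes were mostly higher in colon, with 17 of 25 members higher in colon, 4 higher in small intestine and a median of 0.78. Aqp8, a water channel, read 11.11, 11.35, 11.20, 11.43 and 11.14 in colon and 5.82, 5.22, 5.27, 5.42 and 5.38 in small intestine. Both groups were tight and the difference was 56.6-fold (5.82, SE 0.15, adjusted p = 2.75e-17). Aqp4, another water channel, differed by 4.37 (SE 0.15). Atp12a, the colonic proton-potassium pump, read 11.07 to 12.28 in colon and 4.53 to 5.60 in small intestine, a 92.4-fold difference. Car2 and Car4, carbonic anhydrases that supply bicarbonate and protons for exchange, were higher in colon by 6.43 and 2.94. The epithelial sodium channel subunits Scnn1a and Scnn1b were higher by 2.78 and by at least 3.24-fold, together with Hsd11b2, the enzyme that keeps glucocorticoids from the mineralocorticoid receptor (3.24). Fxyd4, a regulator of the sodium pump, was at least 18.5-fold higher in colon and lowest in mouse 5, whose colon value was 8.09. The chloride-bicarbonate exchangers divided, Slc26a3 being higher in colon (1.89, SE 0.28) and Slc26a6 higher in small intestine (-5.23, SE 0.13). Guca2b, the precursor of uroguanylin, read 8.21 to 9.26 in colon and 12.67 to 13.30 in small intestine (-4.19). Cftr, the chloride channel, had similar levels of 9.59 to 10.01 and 9.28 to 9.91 and did not pass (0.18, SE 0.13, adjusted p = 0.299).

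**Figure D2:**
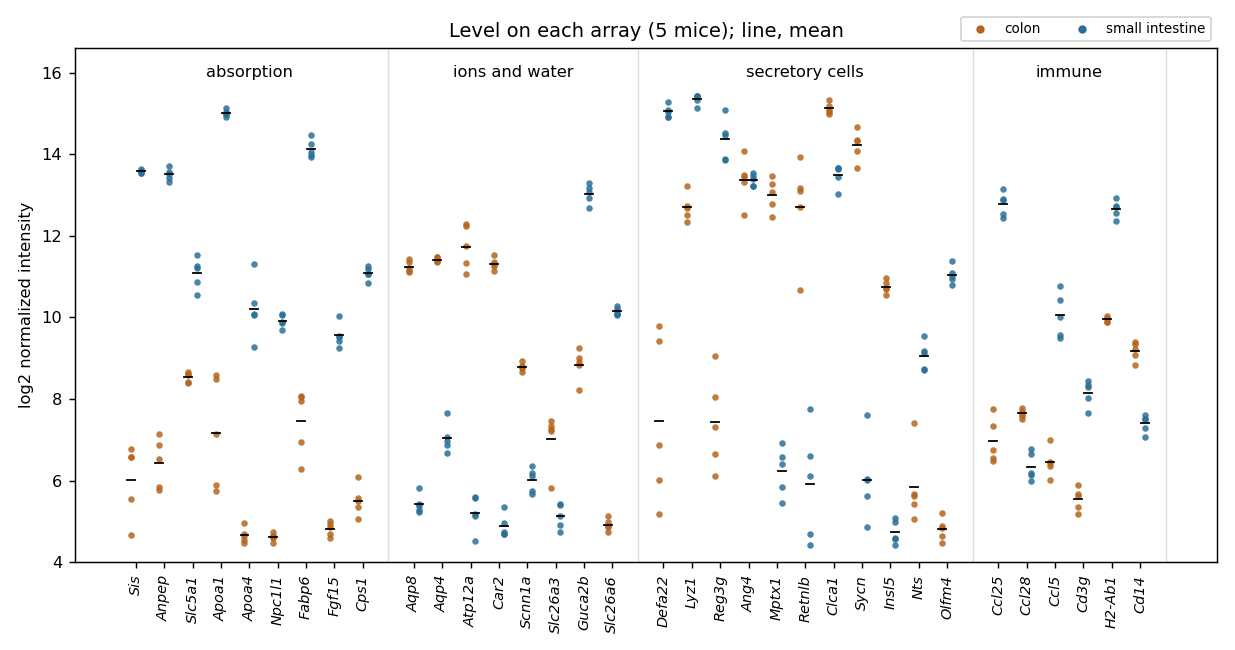
Level of 34 genes on each of the 10 arrays, in log2 normalized intensity, with colon and small intestine points side by side and a line at the mean of 5 mice. For most genes the 2 sets of points lie apart by several log2 units, and Ang4 overlaps between tissues.

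Goblet cell and mucus genes were higher in colon for 20 of 29 members and higher in small intestine for 3, with a median of 0.64. The large differences lay in a few secreted proteins. Retnlb, a bactericidal goblet cell protein, read 13.11, 10.68, 12.71, 13.16 and 13.92 in colon and 6.10, 4.42, 7.75, 4.69 and 6.59 in small intestine, a difference of 6.81 (SE 0.67, adjusted p = 4.3e-08). In small intestine it was detected in 3 of 5 mice and was highest in mice 3 and 5. Clca1, a secreted mucus-processing protease, was abundant in both tissues and higher in colon by 1.64 (SE 0.11), and its relative Clca4b was higher in small intestine (-3.37, SE 0.29). Spdef, the transcription factor of goblet cell maturation, was higher in colon by 1.56 (SE 0.22). Zg16, a lectin that binds bacteria in mucus, sat at the top of the scale, 15.43, on all 5 colon arrays, against 15.18 to 15.32 in small intestine, so that its difference of 0.18 is limited by the scale. Its call (adjusted p = 0.0196) was lost when mouse 2, 3 or 5 was left out. Tff3 went slightly the other way (-0.28, SE 0.08), and the membrane mucin Muc13 did not pass (0.02, adjusted p = 0.878, with a second probe at -0.12). Wfdc2, a secreted protease inhibitor, was among the largest differences of the table, at 13.10 to 13.50 in colon and 5.94 to 7.36 in small intestine (6.70, SE 0.30, 104-fold).

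Enzymes that decorate glycans followed the mucus proteins, with 12 of 22 higher in colon and 3 higher in small intestine (median 0.47). St6galnac6, a sialyltransferase, was detected on no small intestinal array and was at least 42.6-fold higher in colon, with a second probe differing by 2.75. Among its relatives St3gal3 and St3gal6 were higher in colon by 3.29 and 3.29, and St3gal4 was higher in small intestine (-1.97, SE 0.18). B3galt5, a galactosyltransferase, read 11.05, 10.37, 11.00, 11.04 and 10.97 in colon and 5.60, 4.99, 8.50, 5.59 and 6.07 in small intestine, where mouse 3 stood well above the others (4.74, SE 0.32). Fut2, which adds the terminal fucose of gut glycans, showed the same mouse, with 5.90, 5.45, 8.51, 5.00 and 6.76 in small intestine against 9.99 to 10.68 in colon (3.99, SE 0.41). Fa2h, a fatty acid hydroxylase of sphingolipid synthesis, was higher in colon by 5.44 (SE 0.12). Of 22 genes from families known at the colon surface, 17 were higher in colon and 3 in small intestine (median 1.04). They included Nxpe2 and Nxpe4, at least 44.6-fold and 26.9-fold higher, Gsdmc2 of the gasdermin C family (3.12), and Tgm3, a transglutaminase, at least 15.7-fold higher. Members of the Gsdmc family are similar in sequence, and their probes may not separate them.

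Paneth cell genes lay mostly on the small intestinal side, with 11 of 16 higher there, 2 higher in colon and a median of -5.10 (-4.88 with 2 members at their bound). The alpha-defensins gave the lowest difference of the whole table. Defa39 read 5.13, 7.39, 5.24, 7.03 and 4.97 in colon and 14.22, 14.19, 14.33, 14.02 and 14.21 in small intestine (-8.24, SE 0.38, adjusted p = 3.26e-13). Colon of mice 2 and 4 held more of it than colon of the other 3 mice. Defa21 and Defa26 differed by -8.18 and -7.40. The defensin genes are near-identical copies, and their probes may not separate them. Lyz1, the Paneth lysozyme, differed by -2.65 (SE 0.12). Its probe reached the top of the scale in 3 of 5 small intestinal samples, which limits this value, and also read high in colon, at 12.33 to 13.23. The other Lyz1 probes differed by -7.12 and -5.80, and why the probes differ was not tested. Mmp7, which activates defensins, was at least 26-fold higher in small intestine, and Itln1, a lectin, differed by -5.20. Some members did not follow. Ang4, an antimicrobial ribonuclease, read 13.49, 12.50, 13.33, 13.43 and 14.07 in colon and 13.23, 13.23, 13.39, 13.47 and 13.54 in small intestine, overlapping, with a difference of -0.01 (SE 0.45, adjusted p = 0.991). Defa31 read 10.80, 9.86, 5.81, 10.42 and 4.74 in small intestine, lowest in mice 3 and 5, and did not pass (-0.54, SE 1.11, adjusted p = 0.724). In BALB/c PBS mice the same probe read 15.08 to 15.28 in small intestine and 4.49 to 6.46 in colon. Mptx1, a pentraxin, was higher in colon, at 13.07, 12.45, 13.46, 12.79 and 13.26 against 6.40, 5.85, 6.91, 5.46 and 6.57 in small intestine (6.77, SE 0.40, 109-fold).

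Of 5 Reg lectins, secreted antibacterial or regenerative proteins, 3 were higher in small intestine and 2 did not pass (median -5.64), although 1 was higher in colon when mouse 4 was left out. Reg3g, which kills Gram-positive bacteria, read 6.66, 8.05, 6.11, 7.31 and 9.05 in colon and 14.48, 13.89, 15.08, 13.87 and 14.53 in small intestine (-6.93, SE 0.49). Mouse 5 had the highest colon level of Reg3g and also of Reg3b, whose colon values were 8.67, 9.96, 8.05, 9.54 and 11.70. Reg3a differed by -7.08. In the small intestine Reg3g was highest in mouse 3, as were the acute-phase protein gene Saa1 (5.84, 4.78, 8.72, 4.74 and 7.86) and Socs3, a feedback inhibitor of cytokine signals (8.57, 8.49, 10.10, 8.18 and 9.63). Mice 3 and 5 had the highest small intestinal values of both. In colon Saa1 was 8.71 to 9.37, higher by 2.56 (SE 0.43).

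Of 20 enteroendocrine genes 6 were higher in colon and 5 in small intestine (median 0.22), shares near the 27.4% and 19.8% of all genes tested. Insl5, a peptide hormone of colonic L cells, read 10.69, 10.96, 10.73, 10.54 and 10.84 in colon and was undetected in all 5 small intestinal samples, so that it was at least 47.8-fold higher in colon. Pyy, peptide YY, was higher in colon by 1.83 (SE 0.11). Sct (secretin), Ghrl (ghrelin) and Sst (somatostatin) were higher in small intestine, with differences of -2.55, -1.51 and -0.97. Nts, neurotensin, read 5.61, 5.06, 5.42, 5.68 and 7.40 in colon, high in mouse 5, and 8.72 to 9.54 in small intestine (-3.22, SE 0.30), although a second probe differed by -0.61. Gcg, the proglucagon gene, did not pass, with 10.39 to 10.98 and 10.04 to 10.56 (0.18, SE 0.18). Of 7 tuft cell genes 2 were higher in colon and 1 in small intestine (median 0.08).

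At the crypt base 3 of 10 genes were higher in colon and 5 in small intestine (median -0.40). Olfm4, a secreted glycoprotein that marks small intestinal stem cells, read 4.88, 5.21, 4.46, 4.65 and 4.84 in colon and 10.94, 11.39, 11.02, 11.09 and 10.80 in small intestine (-6.24, SE 0.36), and the stem cell receptor Lgr5 and the Wnt target Axin2 differed by -1.10 and -1.44. The progenitor factor Sox9 and Lrig1 were higher in colon by 1.17 and 0.78. None of 28 cell cycle genes was higher in colon and 8 were higher in small intestine (median -0.25, lowest -0.69). Without mouse 1, 2 or 5 that count was 4, 5 or 4, and without mouse 2 there was 1 gene higher in colon. Among them was Cdt1, a replication licensing factor (-0.42, SE 0.09).

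Among 22 transcription factors of intestinal epithelium 8 were higher in colon and 10 in small intestine (median -0.05). The caudal factors Cdx1 and Cdx2, present throughout the intestine, differed little, by 0.44 (SE 0.16) and -0.51 (SE 0.21). Both calls ended when mouse 3 or 4 was left out, that of Cdx1 also without mouse 5, and that of Cdx2 without mouse 1 or 2. Gata5 was undetected in colon and at least 5.87-fold higher in small intestine, where Isx, a repressor of carotenoid uptake genes, and Tbx3 also read higher (-2.22 and -3.79, with a second Tbx3 probe at -1.87). Gata6 differed by only -0.24. Foxa2 was at least 2.44-fold and Foxa1 2.35-fold higher in colon, and Pparg, a nuclear receptor of fatty acids, read 8.94 to 9.70 in colon and 6.38 to 7.30 in small intestine (2.53, SE 0.19).

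The Hox genes that passed divided by cluster. Of 18 tested, 7 were higher in colon and 5 in small intestine (median 0.09), and 20 of the 38 on the array were too rarely detected to test. From the Hoxa cluster, Hoxa5, Hoxa7 and Hoxa13 were higher in colon by 2.34, 3.23 and 0.98, and Hoxa9 by at least 2.3-fold. A second Hoxa13 probe differed by 0.46. From the Hoxd cluster, Hoxd10 read 8.49, 9.59, 8.38, 8.46 and 7.08 in colon and 5.30, 4.67, 4.90, 4.67 and 4.77 in small intestine (3.54, SE 0.25), lowest in colon of mouse 5. Genes of the Hoxb and Hoxc clusters lay on the other side. Hoxc6 read 4.62, 4.67, 5.10, 4.86 and 4.98 in colon, where it was detected in 1 of 5 mice, and 9.78, 9.69, 8.88, 9.82 and 9.27 in small intestine (-4.64, SE 0.20, adjusted p = 8.11e-14), and Hoxc9 was at least 2.37-fold higher there. Hoxb7 read 7.67, 5.92, 5.68, 6.53 and 8.59 in colon and 8.97, 9.19, 8.43, 9.01 and 8.79 in small intestine (SE of the difference 0.30, adjusted p = 1.2e-05, 4-fold). Colon of mouse 5 had the highest values of Hoxb7, Hoxb6, Hoxb4 and Hoxb5, the last of which did not pass (-0.09). Osr2, a zinc finger factor, read 7.58, 6.38, 5.82, 6.30 and 10.59 in colon, again highest in mouse 5, against 11.62 to 12.43 in small intestine (-4.71 with all mice, -5.55 without mouse 5). The labels do not state where along the organ each sample was taken. Markers of the proximal colon were higher in colon in 7 of 9 cases and markers of the distal colon in 5 of 5 (medians 2.94 and 2.30, the latter 1.69 with 2 members at their bound).

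**Figure D3:**
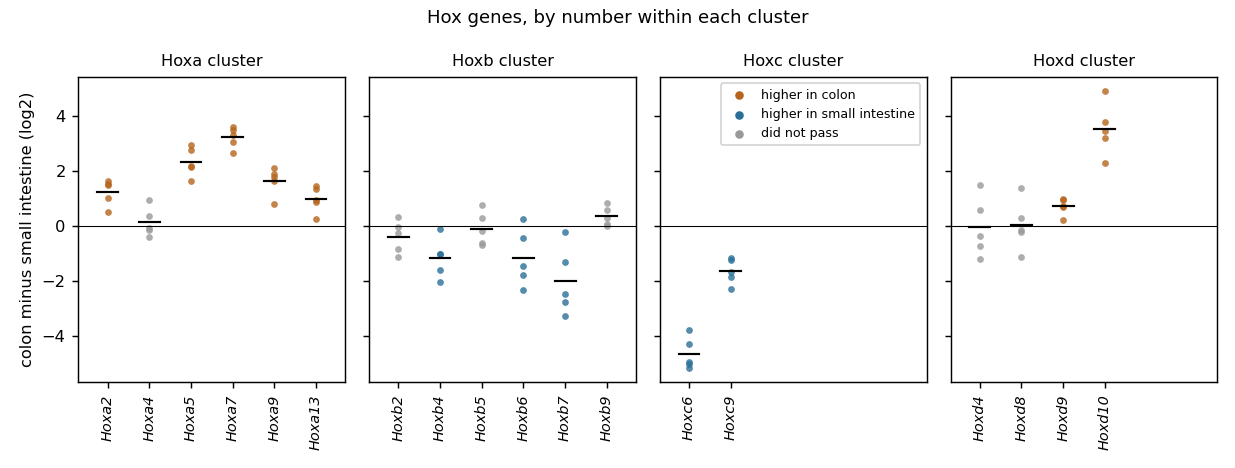
Colon minus small intestine difference (log2) of each tested Hox gene in each of 5 mice, by cluster and in order of number, with a line at the mean and colour by the call. The means of the called Hoxa and Hoxd genes lie above 0 and those of the called Hoxb and Hoxc genes below 0, and the mice of Hoxb6 reach from -2.31 to 0.25.

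Immune transcripts were mostly higher in small intestine. Of 17 T cell genes 14 were higher there and 1 in colon (median -1.65, -1.52 with 1 member at its bound), and the mean level over the list was 5.74 to 6.08 in colon and 6.98 to 7.55 in small intestine. Cd3g, a subunit of the T cell receptor complex, read 5.68, 5.35, 5.17, 5.90 and 5.62 in colon and 7.65, 8.43, 8.30, 8.02 and 8.35 in small intestine (-2.61, SE 0.27). Itgae, the integrin of intraepithelial lymphocytes, differed by -2.02 with one probe and -0.86 with another, and the cytokine Ccl5 by -3.60 (SE 0.44). Of 16 B cell genes 11 were higher in small intestine and 1 in colon (median -0.88), and of 11 plasma cell genes 6 and 1 (median -0.51). The plasma cell counts were 3 in small intestine without mouse 3 and 2 in colon without mouse 4, and the T cell gene on the colon side was lost without mouse 1, 2 or 3. Jchain, which joins the subunits of secreted immunoglobulin A, differed by -1.13 (SE 0.25), while Pigr, its epithelial transporter, was higher in colon by 0.56 (SE 0.15). The chemokines gave 13 of 25 higher in small intestine and 4 higher in colon (median -0.58). Ccl25, which draws lymphocytes to the small intestine, read 6.55, 6.76, 7.33, 6.47 and 7.76 in colon and 12.87, 12.43, 13.14, 12.54 and 12.91 in small intestine, a 55.8-fold difference (SE 0.16 on the log2 scale, adjusted p = 7.1e-17), and Ccl28, a chemokine of mucosal plasma cells, was higher in colon by 1.30 (SE 0.20).

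Antigen presentation genes differed as a block. Of 12 MHC class II genes 10 were higher in small intestine and none in colon (median -2.24). H2-Ab1, a class II chain, read 9.89, 9.98, 9.89, 10.03 and 9.95 in colon and 12.37, 12.92, 12.55, 12.71 and 12.72 in small intestine (-2.71, SE 0.30, adjusted p = 2.11e-07), with a wide gap between the tissues in every mouse. Cd74, the invariant chain, H2-DMa, which loads peptide, and Ciita, the master regulator of the class II genes, differed by -2.63, -3.08 and -2.39. Of 16 class I genes 12 were higher in small intestine (median -0.91), among them B2m (-1.15) and the immunoproteasome subunit Psmb8 (-1.89). Of 23 interferon-inducible genes 9 were higher in small intestine and none in colon (median -0.61). Ifi47, a guanosine triphosphatase induced by interferon gamma, read 6.97, 6.35, 7.23, 9.36 and 7.94 in colon, highest in mouse 4, and 8.99, 9.97, 10.07, 10.07 and 9.98 in small intestine (-2.25, SE 0.53). Mouse 4 also had the highest colon values of Gbp2 (9.30, 9.43, 9.21, 12.13 and 9.79), which did not pass. Among 16 macrophage and dendritic cell genes 4 were higher in colon and 7 in small intestine (median -0.12), with Cd14 and Mrc1 higher in colon (1.78 and 1.04) and C1qa and Cx3cr1 in small intestine (-0.73 and -0.62).

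Sensors of bacteria and epithelial defence genes gave 12 of 31 members higher in colon and 4 higher in small intestine, the latter 2 without mouse 2 or 5. The median of 0.11 was close to the 0.05 of all genes tested, where 27.4% were higher in colon. The receptors Tlr2, Tlr1 and Tlr4, which recognise bacterial lipoproteins and lipopolysaccharide, were higher in colon by 1.47, 1.46 and 1.82. Nox1, the superoxide-forming oxidase of the colon epithelium, read 7.67 to 8.17 in colon and 4.93 to 5.79 in small intestine (2.57, SE 0.17). Il18, an epithelial cytokine, and Il1rn, the interleukin receptor antagonist, were higher in colon by 1.90 and 3.49. The adaptors Pycard and Irak2 were higher in small intestine, with differences of -0.61 and -0.97.

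Genes of xenobiotic metabolism split between the tissues. Of 21 cytochrome P450 genes 11 were higher in small intestine and 5 in colon (median -0.84, or -0.33 without mouse 4). Cyp3a25 and Cyp3a11, of the family that oxidises most drugs, were at least 14.7-fold and 7.64-fold higher in small intestine, and Cyp4v3 differed by -3.69. Cyp2c55 read 13.56, 12.38, 13.05, 13.04 and 13.98 in colon and 8.25, 8.77, 8.35, 9.29 and 9.85 in small intestine (4.30, SE 0.58). Cyp2d34, Cyp2d12 and Cyp2d9 were at least 32.3-fold, 18.9-fold and 10.9-fold higher in colon, whereas Cyp2d26 was higher in small intestine (-3.08). The Cyp2d genes are similar copies, and their probes may share transcripts. Of 45 conjugation and efflux genes 18 were higher in colon and 13 in small intestine (median 0.10). The sulfotransferase Sult1a1 was higher in colon by 4.58 (SE 0.22) and its relative Sult2b1 was higher in small intestine (-2.30). Nat8, an acetyltransferase, was at least 31.7-fold higher in small intestine. Adh1, an alcohol and retinol dehydrogenase, and Hao2, a peroxisomal hydroxyacid oxidase, were higher in colon by 4.77 and 5.90.

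Energy metabolism differed less. Of 30 genes of fatty acid oxidation and its receptors 8 were higher in colon and 11 in small intestine (median 0.07), with Slc27a4, a fatty acid transporter, at -2.71 and Slc25a20, the carnitine carrier, at 0.76. Of 47 respiratory chain subunits 25 were higher in colon and 1 in small intestine, none by 1 log2 unit (median 0.24), and the 1 was lost without mouse 2 or 3. Ndufa1 of complex I was the highest among them (0.89, SE 0.09). Of 17 cholesterol synthesis genes 1 was higher in colon and 2 in small intestine (median -0.07), with 2 in colon without mouse 1, and 1 or 4 in small intestine without mouse 2 or 4. Of 12 iron-handling genes 2 were higher in colon and 4 in small intestine (median -0.01), and Slc40a1, the iron exporter ferroportin, read 12.07, 12.69, 11.96, 11.67 and 12.08 in colon and 10.79, 10.40, 11.04, 10.48 and 10.85 in small intestine, with no overlap (1.38, SE 0.15).

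Junction and lectin genes also divided by member. Of 16 claudins and junction genes 5 were higher in colon and 7 in small intestine (median -0.19). Cldn8, a sealing claudin, was at least 2.76-fold higher in colon, and the pore-forming Cldn2 and Cldn15 were higher in small intestine (-1.06 and -1.16). All 7 galectins passed, 3 higher in colon and 4 in small intestine (median -0.42). Lgals2 read 5.38, 6.63, 5.76, 6.39 and 6.10 in colon and 12.91, 12.86, 13.27, 12.87 and 13.15 in small intestine (-6.96, SE 0.20, 124-fold), while Lgals3 was higher in colon by 1.37 (SE 0.08).

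**Figure D4:**
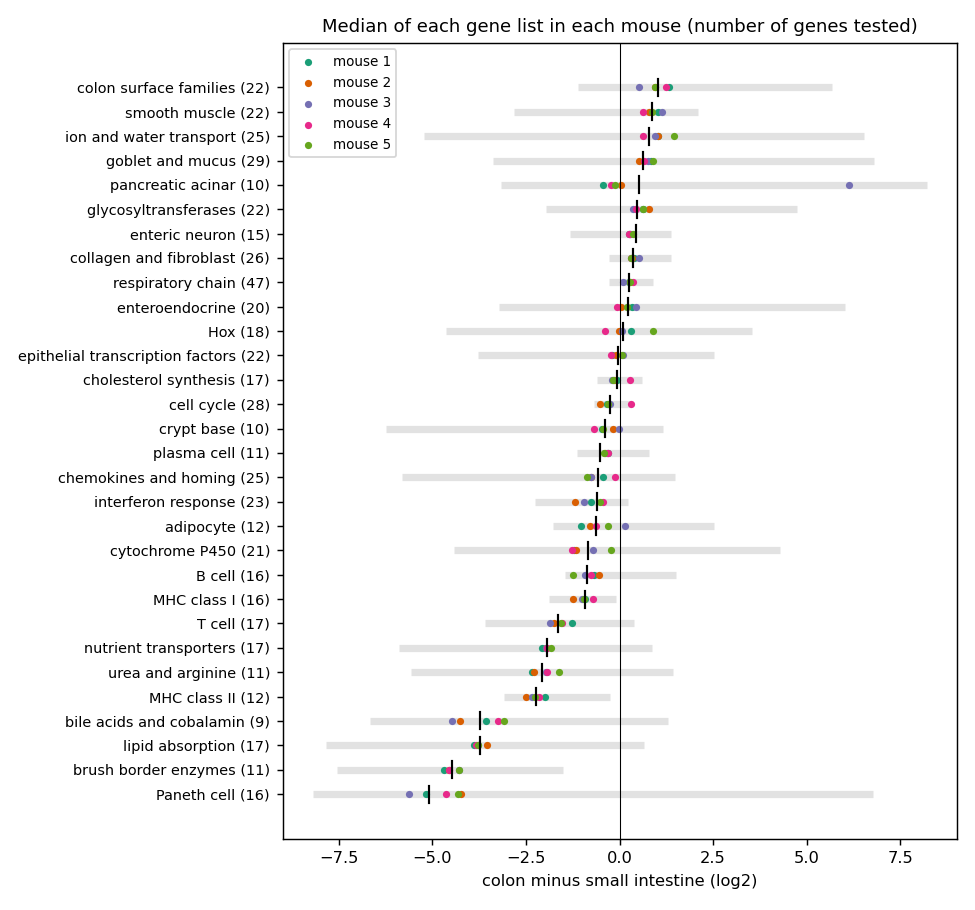
Median colon minus small intestine difference (log2) of 30 gene lists, with a point for each of 5 mice, a black line at the median of the 5-mouse differences and a grey bar from the lowest to the highest member. The 5 mice lie close together for most lists, and the pancreatic acinar list departs from this in mouse 3.

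The wall of the gut was sampled with the mucosa. Smooth muscle genes were higher in colon for 17 of 22 members and higher in small intestine for 1 (median 0.87), with a mean level over the list of 9.97 to 10.25 in colon and 9.15 to 9.68 in small intestine. Actg2, the enteric smooth muscle actin, read 14.14, 14.10, 14.06, 14.18 and 14.19 in colon and 12.68, 13.11, 12.96, 13.24 and 12.99 in small intestine (1.14, SE 0.12), and Tagln and Des differed by 2.09 and 1.44. Acta1, skeletal actin, went the other way (-2.83, SE 0.48), with levels that overlapped between the tissues. Its differences varied between mice, at -1.05, -0.45, -4.33, -5.03 and -3.28, and in BALB/c PBS mice it was higher in colon, by 1.38. Of 26 collagen and fibroblast genes 14 were higher in colon and 1 in small intestine (median 0.37). Of 15 enteric neuron and glia genes 6 were higher in colon and 2 in small intestine (median 0.45), and Vip, the neuropeptide of the enteric plexus, did not pass (0.11, SE 0.13). That median was 0.29 without mouse 2. Of 12 adipocyte genes 6 were higher in small intestine and 1, Pparg, in colon (median -0.64), with 3 in small intestine when mouse 1 was left out. The mean level of the adipocyte list was 7.70 to 8.69 in colon and 8.35 to 9.24 in small intestine, and the part of attached fat in any result was not tested. The part of the muscle share in the differences of epithelial genes was not tested either.

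Exocrine pancreas genes showed 1 sample apart. Of 10 tested, 3 were higher in colon and 1 in small intestine, and the median difference was 6.13 in mouse 3 against -0.44 to 0.05 in the other mice. Rnase1, pancreatic ribonuclease, read 5.44, 5.16, 13.76, 4.63 and 4.72 in colon and 8.52, 8.64, 8.06, 8.53 and 7.95 in small intestine. Ctrl, a chymotrypsin-like protease, read 5.74, 6.05, 13.73, 6.27 and 6.11 in colon and 6.27, 5.74, 6.06, 6.13 and 6.41 in small intestine. In both, colon of mouse 3 alone was high, and neither passed (-1.60, SE 1.42, and 1.46, SE 1.13). Without mouse 3, Rnase1 was higher in small intestine, with a difference of -3.42 (limma, adjusted p = 0.0434), and 2 genes of the list were higher there. Sycn and Cela1, also known from pancreatic acinar cells, were high in the colon of every mouse. Sycn, a zymogen granule protein, read 14.09, 14.67, 14.33, 14.36 and 13.67 in colon and 6.01, 5.61, 6.03, 7.61 and 4.85 in small intestine, the highest positive difference of all genes tested (8.21, SE 0.43, adjusted p = 2.88e-12, 295-fold), and in it mouse 3 did not stand apart. Cela1, an elastase, read 11.81, 12.53, 14.19, 11.91 and 11.56 in colon, highest in mouse 3, and 7.37 to 7.56 in small intestine (4.96, SE 0.43).

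Transcripts that respond to handling and time of day were read as a check of the samples. Of 16 immediate early genes 8 were higher in colon and 1 in small intestine (median 0.31, with 5 higher in colon without mouse 2), with Ccn2 and Dusp1 at 1.86 and 1.05 and Zfp36 at -0.79. Of 15 heat shock genes 5 were higher in colon and none in small intestine (median 0.07), though 2 passed there without mouse 3. Hspa1a was high in the small intestine of mouse 4 (4.93, 5.16, 5.20, 7.33 and 5.64). Of 13 clock genes 5 were higher in colon and 2 in small intestine (median 0.17), with 3 in colon without mouse 3 or 5. Usp2 and Nfil3 lay on the small intestinal side, with differences of -1.09 and -1.07. Some clock genes also differed in level between the strains. Dbp read 6.51 to 7.33 in C57BL/6 colon and 10.08 to 11.82 in BALB/c PBS colon, and Nr1d1 6.06 to 6.53 and 7.96 to 8.64. Nfil3 went the other way, at 7.98 to 8.52 and 6.18 to 7.71, and Usp2 overlapped, at 7.20 to 8.04 and 7.04 to 7.68. The part of these transcripts in the other differences, between tissues or between strains, was not tested.

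The same tissue difference was measured in the PBS mice of the BALB/c strain, which are other animals. There, 515 genes were at least 1 log2 unit higher in colon and 473 higher in small intestine. Of the 513 colon genes of C57BL/6 mice 397 (77.4%, and 77.1% of the BALB/c set) were among them, and of the 560 small intestinal genes 397 (70.9%, and 83.9% of the BALB/c set). The difference between the strains in the tissue difference passed for 335 genes (3.75%), 175 (1.96%) with a higher and 160 (1.79%) with a lower value in C57BL/6, and 39 genes passed in opposite directions in the 2 strains.

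Cfl2, a muscle cofilin, led this comparison. It read 6.26, 6.58, 6.05, 6.37 and 6.77 in colon and 11.94, 11.84, 12.22, 11.69 and 12.35 in small intestine of C57BL/6 mice, and 6.15 to 6.49 and 5.43 to 6.32 in BALB/c mice, so that the tissue differences were -5.60 and 0.51 (difference -6.11, SE 0.21, adjusted p = 7.23e-14). A second Cfl2 probe differed by only 0.35 between the C57BL/6 tissues. Nxpe4 was higher in colon by 4.75 in C57BL/6 and by 0.71 in BALB/c (difference 4.04, SE 0.22). Its BALB/c levels were near the limit of detection in both tissues, at 4.79 to 5.56 in colon and 4.38 to 4.71 in small intestine. Of 16 Paneth cell genes 5 passed this comparison, 2 with a higher and 3 with a lower value in C57BL/6. The probes of Defa22 and AY761185 exchanged places. Defa22 read 14.92 to 15.28 in the C57BL/6 small intestine and differed from colon by -7.59, against 0.38 in BALB/c, while AY761185, another defensin-family gene, differed by -0.77 in C57BL/6 and -9.40 in BALB/c, where its small intestinal level was 13.89 to 14.53. The sequences of the strains at these probes were not compared here. Mptx1 was higher in colon by 6.77 in C57BL/6 and by 1.29 in BALB/c, whose colon read 5.94 to 8.07 (difference 5.48, SE 0.57, adjusted p = 3.86e-06).

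The MHC class II genes showed the strain in their colon level. H2-Ab1 read 11.45 to 13.26 in BALB/c colon against 9.89 to 10.03 in C57BL/6 colon, and 12.50 to 13.37 against 12.37 to 12.92 in small intestine. The tissue difference was -0.55 in BALB/c and -2.71 in C57BL/6 (difference -2.16, SE 0.42, adjusted p = 0.00453), and 8 of the 12 class II genes passed with the lower value in C57BL/6, with list medians of -2.24 and -0.50. Best2, a bicarbonate-permeable channel of goblet cells, had the larger colon excess in BALB/c (3.84 against 1.48, difference -2.36, SE 0.30). Gsdmc2 also had the larger tissue difference in BALB/c (4.75 against 3.12), although its level was lower there in both tissues. It read 10.78 to 11.49 in BALB/c colon against 11.52 to 12.60 in C57BL/6 colon, and 5.97 to 6.58 against 8.63 to 9.33 in small intestine. St3gal4 differed between tissues by -1.97 in C57BL/6 and by 0.36 in BALB/c (difference -2.33, SE 0.25, adjusted p = 6.36e-06). In BALB/c it was near the limit of detection in both tissues, at 4.80 to 5.68 in colon and 4.90 to 5.19 in small intestine. In C57BL/6 it read 8.45 to 8.99 and 9.79 to 11.29. For Insl5 the strains' difference was 0.11 (SE 0.20, adjusted p = 0.841), and for Ccl25 0.24 (SE 0.22, adjusted p = 0.671).

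**Figure D5:**
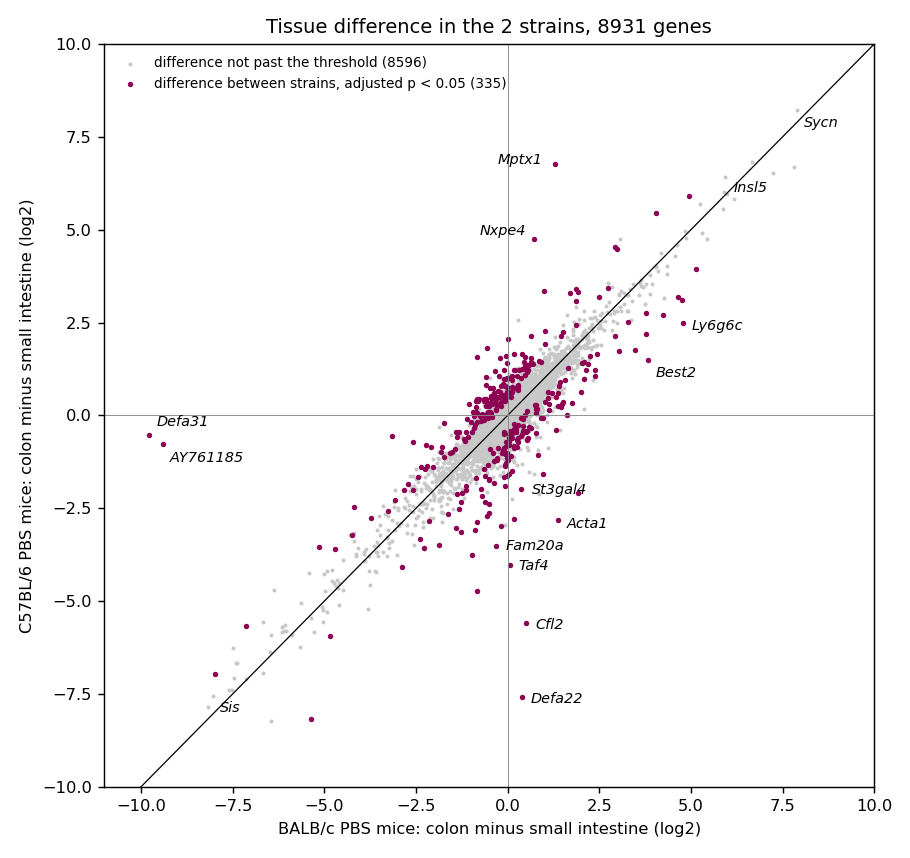
Colon minus small intestine difference (log2, mean of 5 mice) of 8931 genes in BALB/c PBS mice (horizontal) and C57BL/6 PBS mice (vertical); coloured genes are the 335 whose difference between the strains passed, and the line marks equal differences. Cfl2, Taf4, Nxpe4, Mptx1 and the probes of Defa22, Defa31 and AY761185 lie far from the line, and Sis, Sycn and Insl5 lie near it.

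The tissue difference of the C57BL/6 mice that received VSL#3 was set against that of the PBS mice in the same fit. No gene of 8931 passed (0%) in limma, and 373 had an unadjusted p under 0.05. For Sis the tissue difference was -7.55 with PBS and -7.64 with VSL#3, for Aqp8 5.82 and 6.06, for Hoxc6 -4.64 and -4.21, and for H2-Ab1 -2.71 and -2.01 (difference -0.70, SE 0.42). A difference that did not pass does not show that the tissues stand in the same relation in both groups.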

How the data were processed

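RNA from the colon and small intestine of each mouse was measured on Illumina MouseRef-8 BeadChips, from 500 ng of total RNA amplified to labelled RNA, of which 750 ng was hybridised per array, per the labels' protocols. The deposited non-normalized table holds a linear intensity for each probe, already background-subtracted, since 21.4% to 25.1% of the values of an array are negative. Its detection columns, as deposited, hold 1 minus the p-value. A deposited normalized table holds quantile-normalized log2 values. The submitters' processing notes name limma, and its role is not given in the sources used here. Among its columns, 10 of VSL#3 colon followed arrays of the other strain, so that the table served only for an alternative on the PBS mice, and 20 of its columns were not used.

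Intensities of all 40 arrays were background-corrected and quantile-normalized with limma neqc (offset 16, limma 3.58.1, R 4.3.3). Probes entered the fit if detected (p-value under 0.05) on 5 or more of the 10 C57BL/6 PBS arrays, and the kept probe with the highest mean stood for its gene. This gave 8931 genes. Colon minus small intestine values of the 20 mice were fitted as 4 group means and tested with limma's moderated statistics. Both tissues came from the same animal, and the deviations of the 2 arrays of a mouse from their group means correlated with r between 0.119 and 0.355. Mice are the replicates, and their number limits the precision. Only the fit and its test were run on simulated mouse differences with known changes, drawn independently for each gene. Normalization, the detection filter and the choice of probe were not simulated.

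The 46 gene lists and the tests were chosen with earlier results of these data known. Of 1181 list members 1049 were on the array. Named genes followed a rule: the 15 largest differences in each direction among genes detected in both tissues and not overlapping, the 10 largest by bound in each direction, up to 4 members of each list in each direction, the member farthest from its list's majority, up to 8 genes for each comparison of tissue differences, and genes that check the labels. Genes named outside it, chosen after their values were seen, were AY761185, Actg2, Ang4, B2m, Car4, Cdx1, Cdx2, Cftr, Ciita, Clca1, Ctrl, Defa31, Dpp4, Fut2, Gata6, Gbp2, Gcg, Hoxa13, Hoxb4, Hoxb5, Hoxb6, Hsd11b2, Il1rn, Itln1, Lyz1, Muc13, Naaladl1, Osr2, Pdzk1, Pigr, Rnase1, Saa1, Scnn1a, Slc26a3, Socs3, Spdef, Tlr1, Tlr2, Vip, the genes listed for a promoter match and those of the other observations. Promoters are RefSeq's (GRCm38.p6), which matched 7277 of the 8931 genes. Some genes had several probes, and one that showed under 50% of the difference of the main probe is reported beside it.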

Additional observations from a re-analysis of the deposited data

Results flagged for a closer look

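In each gene the 5 mouse differences were screened for 1 mouse far from the other 4 (Dixon's test, critical value 0.71), which chance exceeds in about 1 of 20 genes. Of 211 named genes 17 exceeded it, and of 46 list medians 4. Mouse 3 stood apart for Rnase1 (5.70), Ctrl (7.68) and the median of the exocrine pancreas list (6.13), all from high values in its colon sample. It also stood apart for B3galt5 (2.50), Car4 (1.82), Dpp4 (-4.17), Ethe1 (2.61) and the clock list (0.69). Mouse 4 stood apart for Gbp2 (2.26), the list of bacterial sensing and defence (0.70), cholesterol synthesis (0.27), Hsd11b2 (2.63) and Mptx1 (7.32). Mouse 5 stood apart for Slc51a (-3.57), Cyp3a25 (-4.80) and Renbp (-0.46), mouse 1 for Ass1 (1.70), Fgf15 (-5.46) and G6pc (-1.99), and mouse 2 for Lyz1 (-2.09) and Slc40a1 (2.29).

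Genes whose tissue difference differed between the C57BL/6 and BALB/c PBS mice by the limma test of the difference were Cfl2 (-6.11), Nxpe4 (4.04), Mptx1 (5.48), AY761185 (8.63), Defa22 (-7.97), Best2 (-2.36), St3gal4 (-2.33), H2-Ab1 (-2.16) and Gsdmc2 (-1.62), each as C57BL/6 minus BALB/c on the log2 scale.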

How the results depend on the processing

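The count of genes past the threshold, 4218, was 3784 to 4111 when 1 mouse was left out, and with mice 4 and 5 alone (letter B) it was 2485, with 1394 higher in colon and 1091 higher in small intestine. Without the pairing by mouse (no replicate block) it was 3699, and 4 of 195 named genes lost their call (Cdx1, Cdx2, Gata6 and Tff3) and none gained one. Median scaling in place of quantile normalization moved the median of all genes from 0.05 to 0.11 and the share of calls that were higher in colon from 58.1% to 64.8%, and Zg16, which is at the top of the scale, turned to -0.03. Restricting the genes to those detected on all 10 arrays left 358 genes at least 1 log2 unit higher in small intestine, in place of 560, since genes absent from a tissue then drop out. Of the 195 named genes that passed, 180 kept their call under every alternative run, and 4 lost it without 1 mouse (Cdx1, Cdx2, Socs3 and Zg16). The count of genes that differed from BALB/c, 335, was 227 to 326 without 1 mouse, 218 without the pairing and 89 with the deposited normalized table, fitted on the PBS mice. There Nxpe4, Defa22 and Best2 kept their direction and lost their call (adjusted p = 0.119, 0.175 and 0.103), as they did without background correction (0.218, 0.0592 and 0.0852). The cause was not tested. Signal over background limits the genes near the detection limit.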

Other observations

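A few groups outside the gene lists were read after the values were seen, as descriptions without a test of the group. Genes that detoxify hydrogen sulfide, a product of colonic bacteria, were mostly higher in colon. Ethe1, a mitochondrial sulfur dioxygenase, read 12.20, 12.14, 11.62, 12.14 and 12.11 in colon and 8.70, 8.79, 9.01, 8.71 and 8.66 in small intestine (3.27, SE 0.12, limma adjusted p = 1.09e-14). Sqor, which takes the first oxidation step, and the sulfurtransferase Tst differed by 1.30 and 2.50, and Selenbp1, a methanethiol oxidase, by 3.65. Cbs, a sulfide-forming enzyme, was undetected in small intestine and at least 4.15-fold higher in colon. Suox, the sulfite oxidase, went the other way, from 4.82 to 5.90 in colon to 9.31 to 9.67 in small intestine (-3.90, SE 0.18). Mpst and Cth did not pass (0.38, adjusted p = 0.142, and -0.25, adjusted p = 0.152).

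Several transcripts of sialic acid synthesis and transport were higher in colon. Gne, the first enzyme of its synthesis, read 9.58 to 10.06 in colon and 6.91 to 7.43 in small intestine (2.55, SE 0.09), Nans and Cmas differed by 2.14 and 0.74, and Slc35a1, which carries the activated sugar into the Golgi, by 2.47 (SE 0.12). Renbp did not pass (-0.22, adjusted p = 0.164). Sugar metabolism divided. Khk and Tkfc, which handle fructose, and G6pc, which releases glucose, were higher in small intestine (-3.42, -3.08 and -2.88), and Fbp1 was at least 2.87-fold higher there. The glucose transporter Slc2a1 and the glycolytic genes Hk1, Hk2, Pfkl, Eno3 and Pkm were higher in colon (2.69, 2.47, 1.48, 1.99, 3.89 and 1.10), although a second Pfkl probe differed by only 0.05. Another hexokinase gene, Hkdc1, and another glucose transporter gene, Slc2a2, read higher in small intestine (-4.24 and -1.94). Both are outside the counts of named genes given above. Pck1, a gene of glucose formation, was also higher in colon (0.97, SE 0.22), and Ldha did not pass (-0.01, SE 0.07). Klk1, the tissue kallikrein, and its copies Klk1b5, Klk1b8 and Klk1b27 were higher in colon by 2.43, 3.20, 3.57 and 3.43. These copies are nearly identical, and their probes may not separate them.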
